A study of Mus musculus with 502 samples.

Results

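Silencer arrays in K562 are stretches of the genome in which silencers called in this cell line follow each other at short distance. An array was a run of 4 or more consecutive silencers on chromosomes 1 to 22 in which no gap, from the end of a silencer to the start of the next, was longer than 500 bp. The rule found 240 arrays that held 1037 silencers, called members here, of 128489 K562 silencers on these chromosomes (0.807%). Members were selected on the start and end positions of the K562 silencers, so their number and spacing are a description and were not tested. Over all 3 lists the series held 397136 usable silencers.

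The silencers came from Ss-STARR-seq, a reporter assay in which sheared human DNA is cloned into a plasmid, the plasmids are transfected and the RNA made from them is sequenced beside the plasmid DNA. The labels list 180 libraries of K562 output RNA among 502 libraries in 5 groups; the other 4 groups are output RNA of LNCap and of 293T (281 libraries together), LNCap input DNA (40) and 293T input DNA (1). K562 cells grow from a chronic myeloid leukaemia, LNCap cells from a prostate carcinoma that responds to androgen, and 293T cells from human embryonic kidney; the labels name no treatment or genotype beside the line. There is 1 list of silencers per line, with no replicate lists and no read counts, so read depth is unknown, no difference between lines could be tested over samples, and intervals below cover counting error only. The labels give mouse as the organism throughout, but these lines and the named build, hg38, are human, and the lists were read as human.

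A silencer is a DNA element that lowers transcription from a linked promoter. It is bound by repressors, such as REST or zinc finger proteins with a KRAB domain, which bring in enzymes that remove activating histone marks or add repressive ones. Repressor sites often occur in groups, and repeated sequence is a known target of KRAB zinc finger proteins. In a plasmid assay each fragment is read outside its chromosome, so the lists record what the DNA did in the reporter and not the state of the locus. Genes, repeats and bases under the arrays were not analysed here.

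Most arrays were small. Of the 240 arrays, 196 (81.7%) had the minimum of 4 members, 32 had 5 and 6 had 6. The remaining arrays were 2 of 8 members, 3 of 10 and 1 of 11. Arrays of 6 or more thus numbered 12 and held 93 of the 1037 members.

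The span from the first start to the last end had a median of 780 bp, with quartiles of 600 and 1100 bp and a range from 350 to 4600 bp. The labels give 300 to 400 bp as the length of the cloned fragments. Spans of at most 400 bp were found for 13 arrays (5.42%), and spans of at most 800 bp for 52.5% of arrays, so an array usually reached beyond the length of 1 fragment. Members filled a median of 50% of the span, from 17.5% to 84.4%. Summed over all arrays, members covered 114.1 kb and the gaps between them 115.6 kb.

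Members were narrow and closely set, on the 50 bp windows in which the lists are laid. The median width of members was 50 bp, as in all K562 silencers, and 572 of 1037 members (55.2%) measured exactly 50 bp against 58.7% of all K562 silencers. Wide silencers were also present: 59 members (5.69%) exceeded 300 bp, compared with 2.31% of all K562 silencers, and the widest measured 1259 bp. In 27 arrays every member was 50 bp wide, and 44 arrays had a member over 300 bp. Of the 797 gaps inside arrays, 369 (46.3%) were exactly 50 bp, that is 1 uncalled window, and 511 (64.1%) were at most 100 bp.

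All members of an array often stood on 1 grid. The remainder of the start position after division by 50 was the same for every member in 53.8% of arrays, a share not given for shorter runs. In 98 of these arrays it was 0 or 1, the remainders most common in the list, and in 31 it was another value. The other arrays mixed 2 (93 arrays), 3 (17) or 4 (1) remainders. Of all members, 62.8% started at a remainder of 0 or 1, against 49.6% of all K562 silencers. The share was 56.5% in runs of 4, 73.8% in runs of 5 and 96.8% in runs of 6 or more. In the 1 Mb bins of 3 or more arrays described below, 75% of members started there, and 59.7% of members elsewhere. Most arrays of 6 or more members, 8 of 12, lay in those bins.

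Around the limits of the rule, median scores lay near each other, while LNCap and 293T shares both varied. The shares are given here without intervals. The 41 arrays that held a gap of 450 to 500 bp contained 206 members with a median activity score of 2.4, and 25.7% of these overlapped a LNCap and 7.28% a 293T silencer. The 130 silencers that would enter arrays if gaps up to 550 bp were allowed had a median score of 2.3 and overlapped LNCap in 29.2% and 293T in 3.85% of cases. Runs of 3, which the rule left out, numbered 1593; their median score of 2.3 equalled that of runs of 4, and 20.5% of their silencers overlapped LNCap against 22.6% in runs of 4. For 293T these shares were 3.10% and 4.59%.

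Arrays were unevenly spread over the autosomes. Chromosomes 10 and 19 held most, with 21 arrays each, followed by chromosome 17 with 18, and chromosome 4 held fewest, with 4. Relative to the number of K562 silencers, chromosome 21 stood first with 7.43 arrays per 1000 silencers, followed by chromosome 19 (4.09), chromosome 17 (3.61) and chromosome 10 (3.17). Chromosome 4 stood last with 0.443. On chromosome 21, 55 of 1481 silencers (3.71%) were members.

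**Figure D1:**
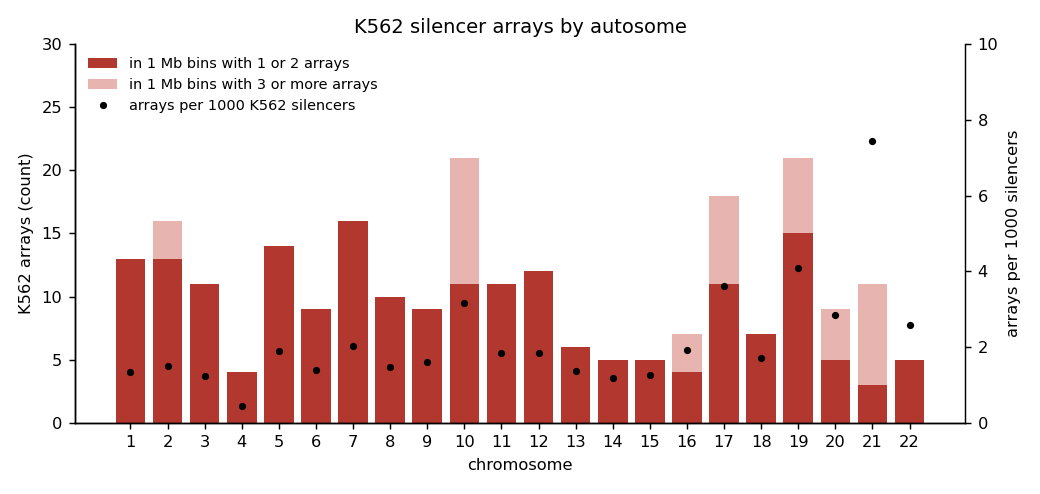
Bars give the number of K562 arrays per autosome (left axis), split by whether the 1 Mb bin of the array held 3 or more arrays; points give arrays per 1000 K562 silencers (right axis). Chromosomes 10, 17, 19 and 21 stand out, and on chromosomes 10 and 21 a large part of the arrays lay in 1 bin.

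Part of this unevenness came from a few places. In 1 Mb bins, 72.1% of arrays were alone, 26 arrays shared their bin with 1 other array, and 41 arrays (17.1%) with 208 members lay in 8 bins of 3 or more arrays. These 8 bins, called crowded here and defined after the data had been seen, held 0.716% of all K562 silencers. The fullest was the bin from 38 to 39 Mb on chromosome 10, with 10 arrays between 38491851 and 38825600; 62 members made up 38.3% of its K562 silencers. In the bin from 10 to 11 Mb on chromosome 21, 8 arrays lay between 10652051 and 10725001, a stretch of 72.95 kb, and 42 members made up 41.6% of the K562 silencers of the bin.

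The other crowded bins held fewer arrays. On chromosome 17, the bin from 26 to 27 Mb held 7 arrays with 29 members, and on chromosome 20 the bin from 31 to 32 Mb held 4 arrays with 19 members. The bins from 89 to 90 Mb on chromosome 2, from 34 to 35 Mb on chromosome 16, and from 18 to 19 Mb and 47 to 48 Mb on chromosome 19 held 3 each. As background, the crowded bins on chromosomes 2, 10, 16, 17, 20 and 21 lie beside centromeres, where satellite repeats and duplicated segments are common. How uniquely reads align in these bins was not examined here, and the shares of members and arrays that overlap other lists are also given without them. Crowding counts arrays only and distance to a centromere was not measured. Arrays outside crowded bins, among them those that met arrays of other lists, can therefore also lie beside centromeres.

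The LNCap list showed arrays in several of the same bins. By the same rule it held 5 arrays in the bin on chromosome 10, 6 in that on chromosome 21, 4 in that on chromosome 20, and 1 each in those on chromosomes 16, 17 and in the bin from 18 to 19 Mb on chromosome 19. It held none in the bin on chromosome 2 or in the bin from 47 to 48 Mb on chromosome 19. The 293T list held 1 array each in the bins on chromosomes 10 and 17 and in the bin from 47 to 48 Mb on chromosome 19, and none in the other crowded bins. In all, LNCap held 294 arrays with 1250 members on the autosomes and 293T 204 arrays with 846 members.

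Some of the largest arrays lay near each other. The array with most members lay on chromosome 10 from 38576800 to 38581400, with 11 members over 4600 bp. In order along the chromosome its members scored 4.3, 3.8, 4.6, 5.0, 3.1, 3.1, 2.8, 2.2, 2.0, 2.6 and 2.0 on the authors' activity scale, on which no listed silencer is below 2. The highest scores thus stood in the first 4 members, which ended 1651 bp from the array's start, and the later members were lower. LNCap silencers overlapped 6 of the 11 members, among them the first 4; a single LNCap silencer of 700 bp met members 2, 3 and 4. A 293T silencer met 1 member, the tenth.

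On the same chromosome, 66.9 kb before that array, lay an array from 38505851 to 38509901 with 10 members. Its widest member measured 800 bp and scored 2.3, and its highest score, 3.7, belonged to a member of 51 bp. LNCap silencers met the last 4 members, and 293T silencers met 3 members, of which 1, the member of 800 bp, met both lists. The part of the array before that member met no LNCap silencer.

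Between these arrays, from 38520400 to 38522476, lay the single array of the 240 that met an array in both other lists. Its 6 members scored 2.4, 2.7, 5.1, 4.1, 2.0 and 2.1. LNCap silencers met all members but the fifth, and 293T silencers met the fifth and the sixth. The LNCap run there had 6 silencers and the 293T run 4. The LNCap silencer on the third member, 51 bp wide, scored 5.9 in its own list; scores of different lists are not on a known common scale and are not compared.

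Arrays of 10 members were also found on chromosome 2 from 89817851 to 89821551 and on chromosome 22 from 10726000 to 10730001. The array on chromosome 2 had scores from 2.0 to 3.2 and its widest member measured 850 bp. LNCap silencers met 6 of its 10 members and 293T silencers none. The array on chromosome 22 had scores from 2.0 to 3.6; LNCap met 4 of its members, from the sixth member on, and 293T met 1, the second member, with a silencer that scored 7.7 in the 293T list.

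The arrays of 8 members lay 26.7 kb apart on chromosome 21, from 10658051 to 10661221 and from 10687951 to 10691401. Both had a median score of 2.1, close to the lowest score in the list. LNCap met 3 members of the former and 4 of the latter, and a 293T silencer met 1 member of the latter. A LNCap silencer of 900 bp began 150 bp before the latter array and met its first 2 members; it belonged to a LNCap run of 14 silencers, the largest array of that list. Between them, from 10683351 to 10685801, an array of 4 members, named after its values were seen, met the same LNCap run with all its members.

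The largest arrays outside crowded bins, apart from that on chromosome 22, were 3 of 6 members, of which the first 2 by position were named by the rule. On chromosome 7 from 62357050 to 62358301 the members scored 3.4, 2.3, 3.8, 2.4, 2.0 and 2.1, and 1 LNCap silencer of 357 bp met the third and the fourth, while a 293T silencer met the first. On chromosome 9 from 130507551 to 130508751 the members scored 2.1, 2.6, 2.3, 2.5, 2.7 and 2.7; 5 of them were 50 bp wide and 1 was 300 bp wide. No LNCap or 293T silencer lay within that array. The last of these, on chromosome 19 from 21640851 to 21642351 and named after its values were seen, had scores from 2.0 to 2.7, and a LNCap silencer met 1 of its members.

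**Figure D2:**
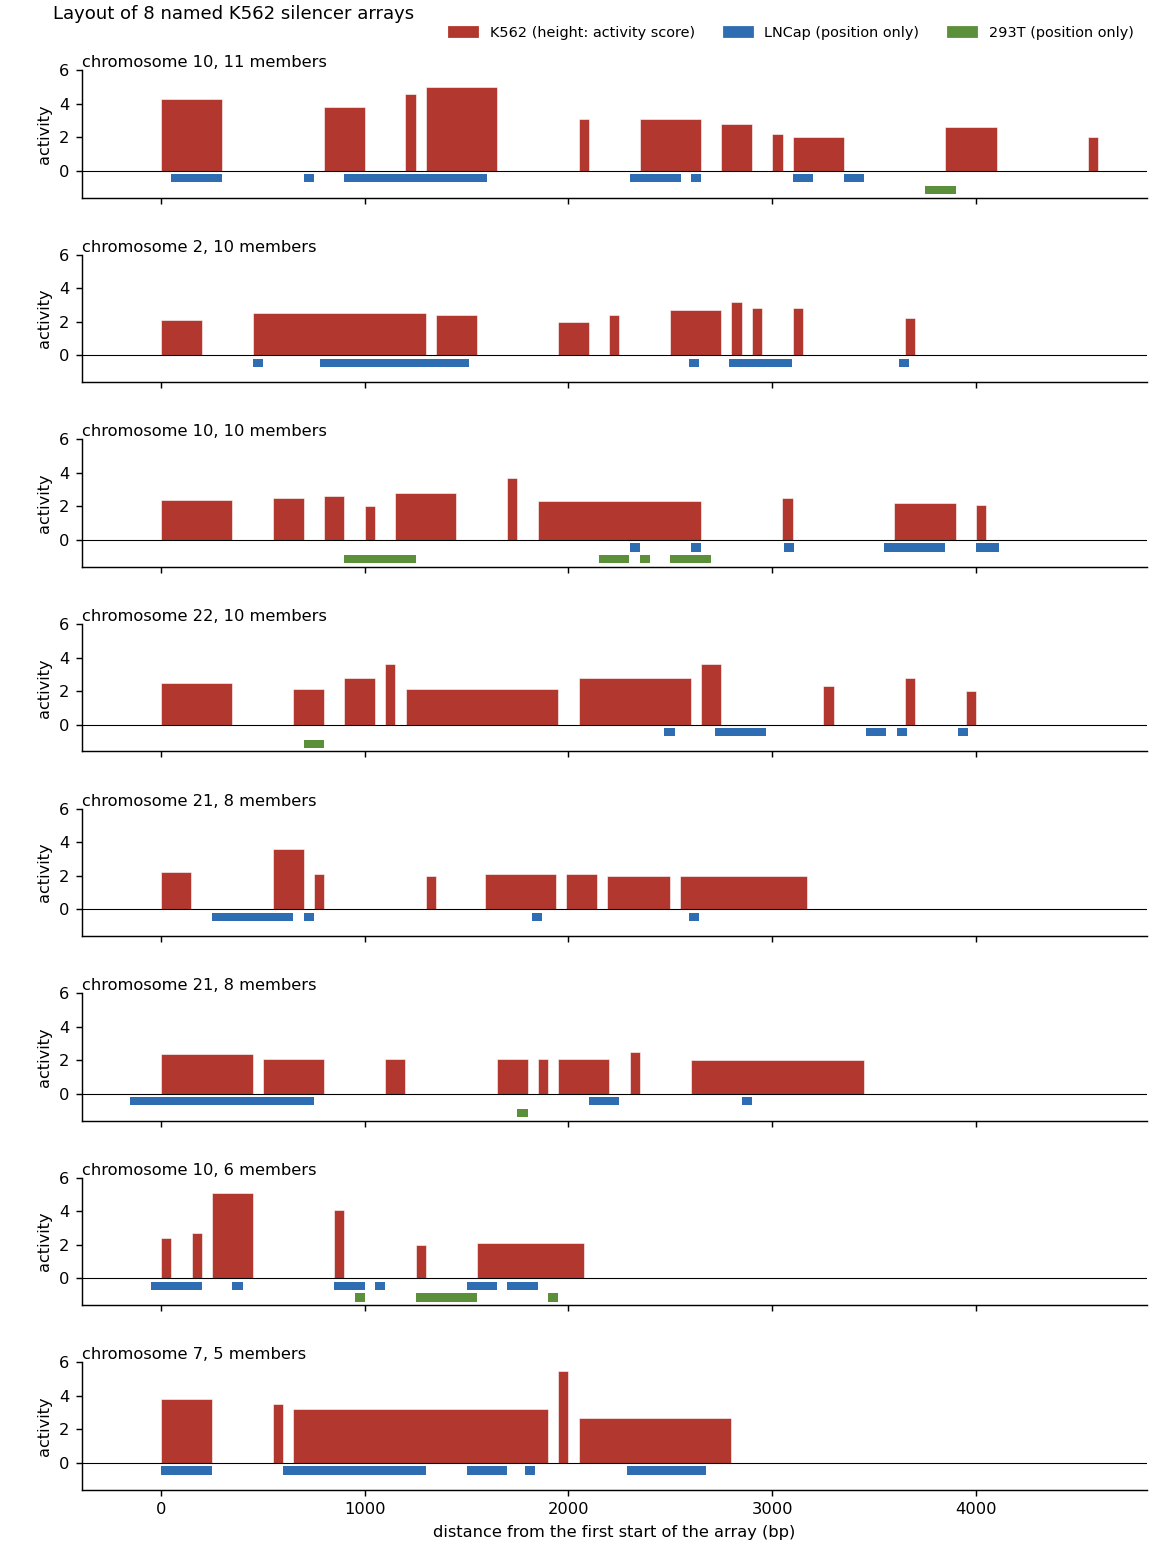
Each panel shows 1 K562 array, with the distance from its first start in bp on the horizontal axis; red bars are members with their activity score as height, and blue and green blocks below the line are LNCap and 293T silencers in the same span (position only). Scores of 4 or more stand on narrow and on wide members, and LNCap blocks lie under some members and gaps and not under others.

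The activity score is the authors' value, deposited to 1 decimal; its formula is not given in the sources used here, so it only ranks silencers within the K562 list. Members had a median score of 2.3 with quartiles of 2.1 and 2.7, and all K562 silencers a median of 2.2 with quartiles of 2.1 and 2.5. Scores of 3 or more were held by 16% of the 1036 members with a finite score, beside 9.85% of all K562 silencers. The share was 8.81% in lone silencers, 12.9% in runs of 2 or 3, 16% in runs of 4, 16.3% in runs of 5 and 16.1% in runs of 6 or more. Outside crowded bins 15.9% of members scored 3 or more, so the share was nearly as large without those bins. These scores come from the list that chose the members and were not tested.

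Members of an array mostly differed in score. The difference between the highest and the lowest member had a median of 0.8, with quartiles of 0.5 and 1.4 and a range from 0 to 3.3. Neighbours separated by 50 bp differed by a median of 0.3 over 368 pairs. As a description, the Spearman correlation of scores between such neighbours was 0.26. It was 0.24 over 204 pairs from 51 to 150 bp apart and 0.08 over 223 pairs farther apart. Neighbours share the same libraries. Those closer than a cloned fragment of 300 to 400 bp can also be read from the same fragments, so their scores are not separate measurements.

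The highest score stood at each place of an array. Among the 196 arrays of 4 members, 21 had a tie for the highest score; in the others it belonged to the first member in 45, the second in 47, the third in 51 and the fourth in 32. The median score was 2.3 for the outer members and 2.4 for the inner members. LNCap silencers met 34 of the first, 45 of the second, 51 of the third and 47 of the fourth members.

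The arrays with the highest median scores illustrate the kinds of layout. On chromosome 7 from 16397701 to 16400501, 5 members filled 83.9% of 2800 bp with scores of 3.8, 3.5, 3.2, 5.5 and 2.7. The highest of these scores, on a member of 50 bp, was the highest finite score of any member, and the neighbours on its sides measured 1250 and 750 bp. LNCap held an array of 5 silencers in the same place, and its first silencer, of 250 bp, had the same start and end as the first K562 member. No LNCap silencer met the member that scored 5.5.

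A compact array on chromosome 7 from 111616351 to 111616701 had a span of 350 bp, the lowest value of any array, with 4 members of 50 bp, each 50 bp apart, whose scores fell in order from 4.9 through 4.2 and 2.8 to 2.3. A LNCap silencer met the last member only. On chromosome 17 from 26856381 to 26857000 the 4 members scored 2.5, 3.2, 4.5 and 3.8. On chromosome 10 from 38824351 to 38825600 they scored 3.4, 3.2, 3.4 and 3.4, a range of 0.2 within the array. On chromosome 11 from 65480701 to 65481401 they scored 2.0, 2.8, 5.1 and 3.9, and LNCap silencers met the first 3.

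Overlap with the other lists was not used by the rule. Members overlapped LNCap silencers by at least 1 bp in 256 of 1037 cases (24.7%, 95% Wilson interval 22.2 to 27.4), beside 15.7% of all K562 silencers. The overlap with 293T was 52 of 1037 (5.01%, interval 3.84 to 6.52), beside 3.02% of all K562 silencers. Both other lists met 19 members (1.83%, interval 1.18 to 2.84), beside 0.799% of all. Outside crowded bins both lists met 11 of 829 members (1.33%, interval 0.743 to 2.36), and that interval includes the 0.792% of all K562 silencers there. Members of 1 array share a region and are not independent, so the intervals are too narrow, and with 1 list per line no test over samples was possible.

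The LNCap share was larger in larger runs. It was 14.5% in lone silencers (interval 14.3 to 14.7), 19.1% in runs of 2 or 3 (18.6 to 19.5), 22.6% in runs of 4 (19.8 to 25.6), 26.9% in runs of 5 (20.6 to 34.2) and 38.7% in runs of 6 or more (29.4 to 48.9). Neighbouring intervals overlap from runs of 4 upward. For 293T the shares were 2.90%, 3.30%, 4.59%, 4.38% and 9.68%, with 9 of 93 silencers behind the last value. Of the 12 arrays of 6 or more members, 8 lay in crowded bins. Without these bins the LNCap shares were 14.5% in lone silencers, 19% in runs of 2 or 3, 20.8% in runs of 4 (interval 17.98 to 24.01), 23.8% in runs of 5 (16.7 to 32.8) and 25% in runs of 6 or more (12.7 to 43.4). The intervals from runs of 4 upward then all included the share in runs of 2 or 3, and those in runs of 4 and 5 lay above the share of lone silencers while that in runs of 6 or more included it. For 293T the shares without these bins were 2.90%, 3.29%, 4.02%, 2.86% and 7.14%, with 3 and 2 silencers behind the last 2 values.

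**Figure D3:**
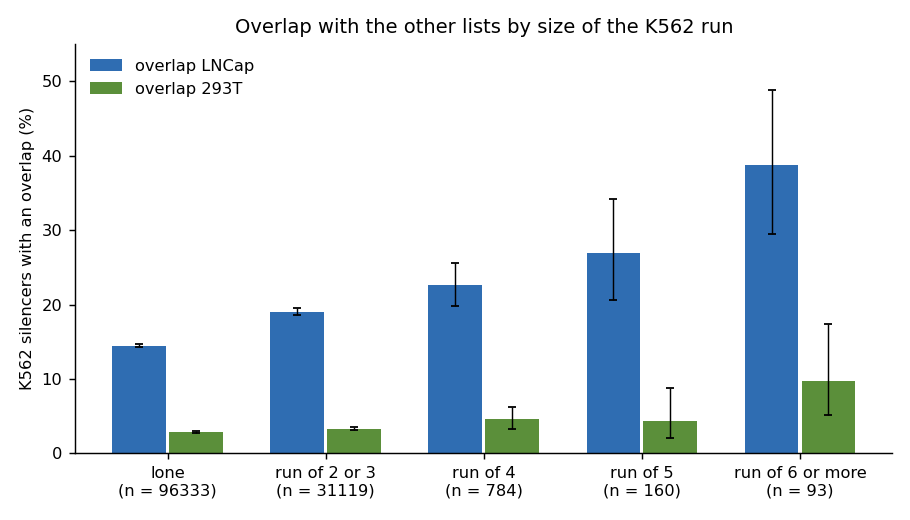
Bars give the percentage of K562 silencers that overlapped a LNCap (blue) or a 293T (green) silencer by at least 1 bp, by the size of the run the silencer belonged to; error bars are 95% Wilson intervals for counting error only. The LNCap share goes from 14.5% in lone silencers to 38.7% in runs of 6 or more; without crowded bins, which the plot includes, the last share was 25%.

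Members in crowded bins had larger shares than members elsewhere. Without them, 21.4% of 829 members (interval 18.7 to 24.3) overlapped LNCap, against 15.6% of all K562 silencers outside these bins, and 33 of 829 (3.98%, interval 2.85 to 5.54) overlapped 293T, against 3.00%; that last share lies inside the interval of the members. Inside crowded bins, 79 of 208 members (38%, interval 31.7 to 44.7) and 25.3% of 712 other silencers (interval 22.2 to 28.6) overlapped LNCap. For 293T the values there were 19 of 208 (9.13%) and 31 of 712 (4.35%).

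Width was set beside the shares, since a wide silencer meets another list more easily. Among silencers of exactly 50 bp, 18% of 572 members (interval 15.1 to 21.4) overlapped LNCap, against 14.4% in runs of 2 or 3 and 9.77% of lone silencers. At 51 to 100 bp the LNCap shares were 22.9% of members, 20.3% in runs of 2 or 3 and 13.7% of lone silencers. Between 100 and 200 bp members (23.7%, interval 16.8 to 32.3) did not stand apart from runs of 2 or 3 (25.7%) or from lone silencers (20.4%). At 200 bp and over the shares were 55.3% (interval 47.1 to 63.3), 38.8% and 36.8%. Without crowded bins the share of members was 16.9% at 50 bp (interval 13.9 to 20.5), against 10.9% of all K562 silencers outside these bins. At 200 bp and over it was then 45.3% of 75 members (interval 34.6 to 56.6), and that interval includes the 37.1% of all. Weighting all K562 silencers to the width classes of the members gave 16.6% for LNCap and 3.19% for 293T, beside 15.7% and 3.02% unweighted. The class of 200 bp and over has no upper limit, and widths within it were not matched. Of members 5.69% exceeded 300 bp, against 2.31% of all K562 silencers, so the shares in that class compare unlike widths.

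**Figure D4:**
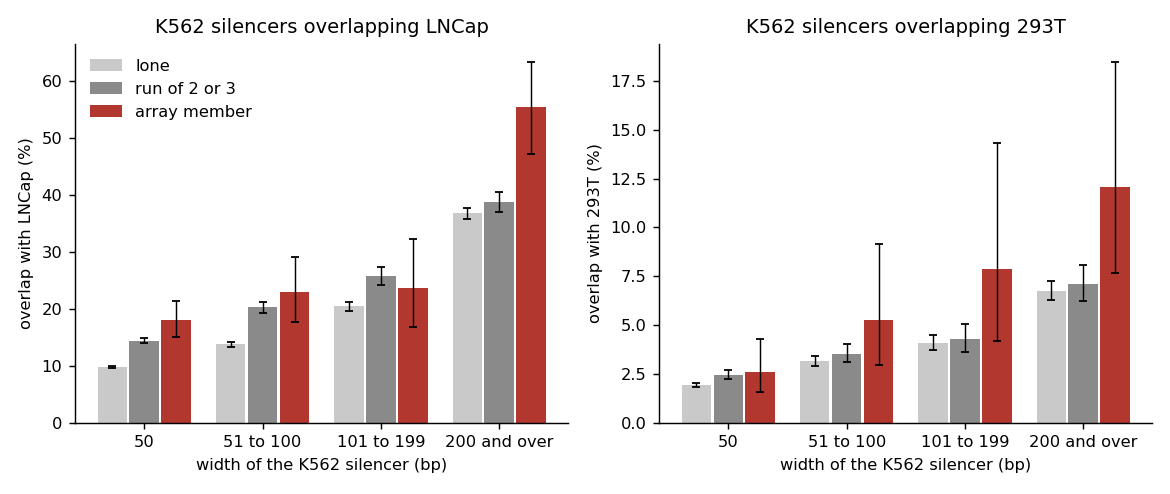
Bars give the percentage of K562 silencers overlapping LNCap (left) or 293T (right) in 4 width classes, for lone silencers, silencers in runs of 2 or 3, and array members; error bars are 95% Wilson intervals for counting error only. In the LNCap panel members are above lone silencers at 50 bp (18% and 9.77%) and not separated from them between 100 and 200 bp.

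For 293T, width class by width class, the members' intervals held the share of lone silencers at 50 bp (2.62% of members, interval 1.60 to 4.28, against 1.93%) and at 51 to 100 bp (5.24%, interval 2.95 to 9.13, against 3.14%). They lay just above it between 100 and 200 bp (7.89%, interval 4.21 to 14.3, against 4.09%) and above it at 200 bp and over (12.1%, interval 7.67 to 18.5, against 6.75%). The members behind these 2 shares numbered 9 and 17. Without crowded bins they were 5 of 83 (6.02%, interval 2.60 to 13.3) and 7 of 75 (9.33%, interval 4.59 to 18.03), and both intervals included the shares of all K562 silencers there, 4.17% and 6.82%.

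Members with high scores overlapped LNCap more. Of the members scoring 3 or more, 63 (38%, interval 30.9 to 45.5) met a LNCap silencer, beside 23% of all K562 silencers with such a score. In lone silencers of that score the share was 21.1%, and in runs of 2 or 3 it was 26.4%. Outside crowded bins it was 31.8% of such members (interval 24.5 to 40.2), against 22.8% of all such silencers there. For 293T, 11 of these members (6.63%, interval 3.74 to 11.5) overlapped, and the interval held the 4.5% of all such K562 silencers. Outside crowded bins it was 4.55% (interval 2.10 to 9.56).

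The LNCap share was higher in members than in the other silencers of the chromosome on 19 of 22 autosomes. It was highest on chromosome 21, at 47.3% of 55 members against 15.4% of the other silencers there, where 42 of the 55 lay in the crowded bin, and stood at 39.6% of 48 members on chromosome 12, which has no crowded bin. On chromosome 18, none of the 29 members in 7 arrays met a LNCap silencer, which allows a share of up to 10.3% by 3 counts of 29, were the members independent, while 14.01% of the other silencers there did. For 293T the share was higher in members on 13 of 22 autosomes and 0 on 5 of them.

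Exactly coinciding silencers were few. The same start and end were found in LNCap for 9 members (0.868%, interval 0.457 to 1.64), beside 1.12% of all K562 silencers. In 293T they were found for 2 members (0.193%), beside 0.12%. None of the 208 members in crowded bins had such a twin in either list (interval 0 to 1.81). That interval includes the shares of all K562 silencers and, for LNCap, the 1.40% of other silencers in crowded bins. Of the 256 members that met a LNCap silencer, 170 had at least 50% of their length covered.

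Counted by array, the number of members that met another list varied. No such counts are given for shorter runs, so these describe the arrays alone. In 44.6% of arrays no member met a LNCap silencer, in 58 a single member did, in 44 there were 2 and in 31 there were more. All members met LNCap in 5 arrays (2.08%). No array had all its members met by 293T silencers; in 203 arrays no member was met, in 23 there was 1, in 13 there were 2 and in 1 there were 3.

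Counted by span, 60.4% of the 240 arrays met a LNCap silencer and 45 arrays (18.8%) a 293T silencer, beside 17.1% and 3.49% of K562 runs of any size. Most runs of any size are lone silencers, and a longer span meets more. Runs of 3 met LNCap in 44.3% and 293T in 9.42% of cases, and runs of 2 in 31.8% and 6.77%. Outside crowded bins 55.3% of arrays (interval 48.3 to 62.02) met a LNCap silencer and 16.6% a 293T silencer.

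Arrays seldom met arrays. By span, 17 of 240 K562 arrays (7.08%, interval 4.47 to 11.0) met a LNCap array, beside 0.16% of K562 runs of any size, and these were 16 of the 294 LNCap arrays (5.44%). With 293T it was 3 of 240 (1.25%, interval 0.426 to 3.61), beside 0.0305%, and 3 of the 204 arrays of 293T (1.47%). The runs of any size are mostly lone silencers with shorter spans, so these shares are not like for like. For this measure no value is given for runs of 2 or 3. Of the 17, 10 lay in crowded bins: 4 on chromosome 10, 2 on chromosome 20 and 4 on chromosome 21. Outside crowded bins 7 arrays (3.52%) met a LNCap array and 1 a 293T array.

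The 7 outside crowded bins were spread over as many chromosomes. They included the arrays on chromosome 7 at 16397701 and on chromosome 22 at 10726000 described above. The others lay on chromosome 10 from 119572857 to 119573504, on chromosome 11 from 64783001 to 64783751, on chromosome 14 from 50137650 to 50138374, on chromosome 15 from 48310099 to 48310797 and on chromosome 20 from 3882047 to 3882944. In that array on chromosome 20 all 4 members, scoring 3.6, 2.6, 2.2 and 2.4, met LNCap silencers of a run of 5. The 293T array outside crowded bins met the K562 array on chromosome 10 from 42301447 to 42303211.

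In some places 1 silencer of LNCap stood where K562 had several, and in others LNCap had more silencers than K562. On chromosome 10 from 38491851 to 38494150, an array named after its values were seen, 8 LNCap silencers met the span of 4 members. Arrays hold at least 4 K562 silencers by the rule, and the reverse case was not counted. A single LNCap silencer met at least 2 members in 36 of 240 arrays (15.0%), at least 3 in 10 arrays and at least 4 in 2 arrays. Outside crowded bins the counts were 22, 8 and 2. No matching counts are given for runs of 2 or 3, so these values do not set arrays apart from shorter runs. The 2 arrays that 1 LNCap silencer met in all 4 members were named after their values were seen, as were the arrays on chromosomes 12 and 20 and that at 42301447 on chromosome 10 named in these paragraphs and the arrays listed as meeting a LNCap array outside crowded bins, apart from those at 16397701 and 10726000. On chromosome 10 from 19643239 to 19643683, K562 had 4 members with scores of 2.2, 2.7, 2.4 and 2.7, each 50 bp apart, and LNCap had 1 silencer of 444 bp with the same first start and the same last end as the array.

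On chromosome 12 from 6713921 to 6714616, the 4 members scored 2.5, 2.0, 2.1 and 2.8, and 1 LNCap silencer of 641 bp met them all. An array on chromosome 12 from 1664351 to 1665001 also had all 4 members met by LNCap, here by 3 silencers, and 2 of its members met 293T silencers as well. In 293T, 1 silencer met 2 members in 6 arrays and met 3 in none. In the array at 6713921 the members covered 250 bp and in that at 19643239 they covered 294 bp. Both values are below the width of the single LNCap silencer there. A silencer that meets every member also covers the gaps between them, so this follows from the choice of these arrays.

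The bases between members were covered too. LNCap silencers covered 20.7% of the bases of members, 12.5% of the bases in the gaps between them and 3.22% of the bases in the flanks of 1000 bp on both sides. Without crowded bins the values were 16.3%, 10.8% and 1.92%. In runs of 2 or 3, LNCap covered 14.8% of silencer bases and 10.3% of gap bases, and over all K562 silencers 12.7% of silencer bases. For 293T, coverage was 3.49% of member bases, 2.04% of gap bases and 1.28% of flank bases, and without crowded bins 3.14%, 1.52% and 0.985%. In the LNCap list, coverage of gap bases thus lay between that of member bases and of flanks, by these values without a test. This order is not independent of the rule. Gaps are at most 500 bp long with members on both sides, and no K562 silencer lies within 500 bp outside an array. No flank value is given for runs of 2 or 3.

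**Figure D5:**
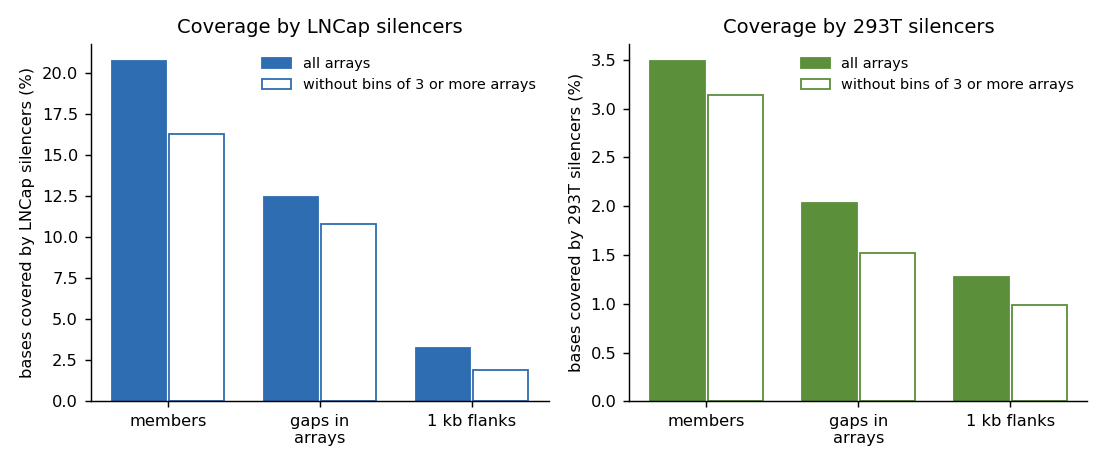
Bars give the percentage of bases covered by LNCap (left) or 293T (right) silencers in array members, in the gaps between members and in 1000 bp on both sides of an array; open bars leave out the 1 Mb bins of 3 or more arrays. LNCap coverage goes from 20.7% in members through 12.5% in gaps to 3.22% in flanks, with a separate vertical scale for 293T.

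Some arrays began or ended where a LNCap silencer did. The first start of 12 arrays (5.00%, interval 2.88 to 8.53) was also a start in LNCap, beside 2.49% of K562 runs of any size, and the last end of 11 arrays (4.58%, interval 2.58 to 8.02) was also an end in LNCap, beside 2.56%. Outside crowded bins both counts were 10 (5.03%, interval 2.75 to 9.0). Runs of 2 or 3 shared a first start with LNCap in 3.13% and a last end in 3.23% of cases. These shares lie inside the intervals of the arrays, with and without crowded bins. In 2 arrays (0.833%) both the first start and the last end were shared, beside 1.06% of runs of any size. For 293T the counts were 2 starts (0.833%, beside 0.278%) and 1 end (0.417%, beside 0.289%).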

How the data were processed

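The authors' 3 silencer lists, 1 per cell line, were used as deposited. Per the file headers, each line holds a region's position and an activity value, a score that the authors deposited to 1 decimal. Bowtie2, SAMtools and hg38 are named, without versions, in the submitters' processing notes. How the score was made, which caller and threshold were used, against which input and over which libraries: not given in the sources used here. Positions are printed as deposited, with their counting base unknown.

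Lines with broken fields, no positive width or over 5000 bp were left out (12 for K562, 25 for LNCap, 58 for 293T). Silencers with an infinite score (1 member) were kept for positions and left out of score summaries. Overlap was at least 1 bp, shares carry 95% Wilson intervals, and comparisons are descriptions without a test. Arrays of LNCap and 293T were found by the same rule.

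The members and lists were chosen with earlier results of these data known. Arrays were named by rule: the 8 with most members, the 5 longest, the 5 with the highest median score and those meeting arrays of both other lists, with ties taken by position (6 arrays tied at 6 members). The rule for sequences and genes could not be applied, and base composition and gene features were not analysed here, because no human genome or annotation was used. The array rule and the overlap routine were tested on simulated lists. The alternatives tried were other gaps, run sizes, overlap rules, widths and scores. Bins, score and width classes, flanks, boundaries and the arrays named beyond the rule were chosen after the lists had been examined. Tables were made in pandas 2.3.3 and numpy 2.4.6 under Python 3.11.15, intervals with scipy 1.17.1 and plots with matplotlib 3.10.9.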

Additional observations from a re-analysis of the deposited data

How the results depend on the processing

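The number of members and arrays depends on the rule itself. Members and arrays numbered 606 and, rounded to 2 digits, 1.5e+02 with gaps up to 250 bp, 1964 and 441 with gaps up to 1000 bp, 5816 and 1833 with runs of at least 3, 253 and 44 with runs of at least 5, and 1.8e+02, likewise rounded, and 41 when only silencers above the median score were kept. The median span was 600 bp and 1221 bp with the shorter and the longer gap, 500 bp and 1400 bp with runs of at least 3 and of at least 5, and 708 bp without crowded bins, an alternative chosen after seeing the data. No silencers abutted, so merging them changed nothing.

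The share of members overlapping LNCap and 293T was 16.4% and 2.89% with at least 50% of the K562 silencer covered (10.2% and 1.57% of all K562 silencers). It was 53.9% and 16% with midpoints within 500 bp (27.2% and 9.17%), and 18% and 2.62% among silencers of 50 bp (11.0% and 2.06%). With runs of at least 3 it was 21.2% and 3.44%. With runs of at least 5 the LNCap share was 31.2%, without crowded bins it was 21.4%, and above the median score in both lists the 293T share was 2.93% (2.06% of all). The share of arrays meeting an array in LNCap was 2.74% with gaps up to 250 bp, 18.2% with runs of at least 5 and 3.52% without crowded bins; that for 293T was 0% with gaps up to 250 bp. The cause of these changes was not tested. The other 24 of 54 values moved by less than their counting error or, for counts, less than 1.5 times, and the median score of members was 2.3 or 2.4 throughout. No paired analysis was possible because each line has 1 list and no test was made. Base composition and gene features were not run. Without read counts, what depth limits cannot be given.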

Other observations

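On chromosome X, which the rule leaves out, the same run length and gap gave 3 arrays in the K562 list, 10 in LNCap and 8 in 293T, and on chromosome Y they gave 1 array, in LNCap. The K562 arrays on X had 12 members in all.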
